A study of Mus musculus with 2 samples.

Results

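Goblet-like cells were picked out of single-cell libraries of mouse small-intestinal crypts grown together with fibroblasts. The gate kept 143 cells of the 1783 epithelial cells, among 2446 cells that passed the filters and 2507 deposited cell columns. A cell was epithelial when its unique molecular identifiers (UMIs, which count RNA molecules) of Epcam, Krt8, Krt18, Krt19 and Cldn7 outnumbered those of the fibroblast genes Col1a1, Col1a2, Col3a1, Sparc and Dcn. An epithelial cell was goblet-like when Muc2, Zg16, Fcgbp, Spink4, Agr2 and Tff3 together made up at least 0.5% of its UMIs and were no fewer than its UMIs of the Paneth genes Lyz1, Defa17, Defa24, Ang4 and Itln1. At least 1 UMI of Muc2, Zg16, Fcgbp or Spink4 was also required. The cells were therefore chosen by measured values, so the levels of these genes and the share of goblet-like cells are given as a description only.

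The libraries were made by Drop-seq, in which droplets pair single cells with barcoded beads. Both cultures were made from C57BL6 mice of 10 weeks, grown in Organoid Growth Media and released with trypsin and EDTA. The culture named Ptger4-ON received the vehicle DMSO and grew as spheroids. The culture named Ptger4-OFF received ONO-AE3-208, an antagonist of the prostaglandin E2 receptor EP4 that Ptger4 encodes, at 10 µM every other day, and formed budding organoids. Each condition was 1 library from a pool of 6 cultures, so no test between conditions was possible. Condition, pool and library preparation cannot be told apart, and every interval given here is a 95% interval for counting error only.

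Goblet cells are the mucus-secreting cells of the intestinal epithelium. Their granules hold the gel-forming mucin Muc2 with partner proteins such as Fcgbp, Zg16 and the trefoil peptide Tff3. They arise from crypt progenitors in which Atoh1 opens the secretory fate, and Spdef with other factors drives their maturation. Paneth cells, the antimicrobial cells of the crypt base, come from the same secretory progenitors, and cells that carry products of both are known from crypts and organoids.

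The goblet-like cells held 841178 UMIs in Ptger4-ON and 498940 in Ptger4-OFF, with medians of 4649 and 4060.5 UMIs and 2062 and 2009 genes in each cell. The cells ran from 398 to 103285 UMIs in Ptger4-ON and from 789 to 53093 in Ptger4-OFF. In Ptger4-ON 2 cells over 50000 UMIs supplied 23.2% of the goblet-like UMIs, and in Ptger4-OFF 1 such cell supplied 10.6%. The libraries shared 1 barcode, which was not a goblet-like cell, and 8 goblet-like barcodes in Ptger4-ON and 1 in Ptger4-OFF lay 1 base from a barcode with more UMIs. Scrublet called 6 and 4 doublets in the whole libraries, of which 0 and 1 were goblet-like, and they were kept.

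Goblet-like cells were 77 of 584 epithelial cells in Ptger4-ON and 66 of 1199 in Ptger4-OFF. These were shares of 13.2% (exact Clopper-Pearson interval 10.5 to 16.2) and 5.50% (4.28 to 6.95). Of all cells after filters they were 8.73% and 4.22%. Few cells lay near the edge of the gate. In Ptger4-ON 4 cells and in Ptger4-OFF 3 had goblet genes from 0.4% up to 0.5% of UMIs and stayed outside. From 0.5% up to 0.6%, 6 of 7 cells and 4 of 5 were inside. A further 29 and 22 cells reached the goblet level but had more Paneth than goblet UMIs, and 4 and 3 lacked the required UMI.

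Tff3 was the most abundant of the gate genes, and the mucus proteins were spread unevenly over the cells. Levels are UMIs in each 1000000 UMIs of the summed cells (CPM). Drop-seq tags transcript ends, so a UMI stands for a molecule whatever its length and CPM was not divided by gene length. Tff3, a trefoil peptide of mucus at chr17:31125306-31129646 on the minus strand of mm10, was at 14449 CPM in Ptger4-ON and 12823 in Ptger4-OFF, and had UMIs in 76 and 66 goblet-like cells. Spink4, a small secreted protein of goblet granules, was at 6003 and 4229 CPM. Agr2, the disulfide isomerase needed for Muc2 folding, was at 3341 and 2818 CPM. Summed over all goblet-like cells these levels were a little lower in Ptger4-OFF. The gate used these genes, so no difference between the conditions is read from them.

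Fcgbp, which cross-links into the mucus gel, was the gate gene that was higher in Ptger4-OFF, at 903 CPM in Ptger4-ON against 1098. Muc2, the gel-forming mucin, was at 414 CPM (371 to 459) in 40 Ptger4-ON cells and at 192 CPM (156 to 235) in 26 Ptger4-OFF cells. Zg16, a lectin that binds bacteria, was at 2083 and 619 CPM and rested on few cells. Its UMIs lay in 22 and 11 cells, and 1 cell in each library held 37.8% and 43.7% of them.

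**Figure D1:**
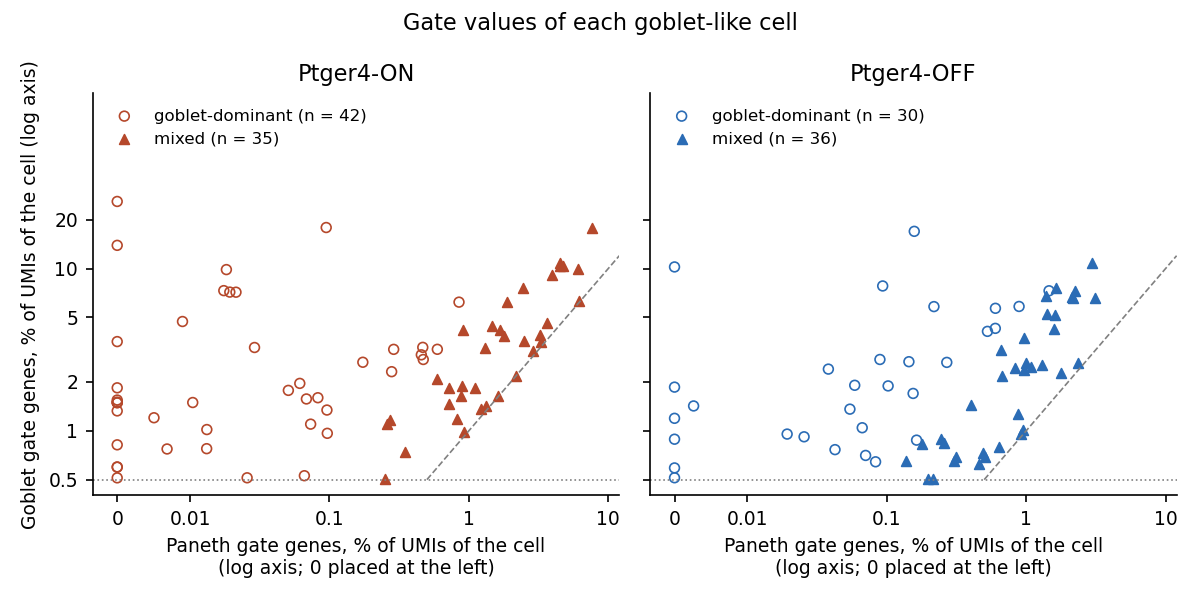
Each point is 1 goblet-like cell: the share of its UMIs from the 6 goblet gate genes (vertical, log axis) against the share from the 5 Paneth gate genes (horizontal, log axis, with 0 placed at the left edge). The dotted line is the 0.5% gate and the dashed line is equal goblet and Paneth UMIs; circles are the 42 and 30 goblet-dominant cells (at least 5 times as many goblet as Paneth UMIs) and triangles the 35 and 36 mixed cells. Cells of both kinds were present in both libraries.

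A list of goblet products that the gate did not use summed higher in goblet-like cells than in the other epithelial cells of the same library. Those other cells include the ones at the goblet level with more Paneth than goblet UMIs. There, the list of goblet products beyond the gate summed to 10463 CPM in Ptger4-ON and 11860.5 in Ptger4-OFF. In goblet-like cells it summed to 8160 and 7628 CPM, and in all the other epithelial cells to 2934 and 3149 CPM. Whether the markers below separate goblet-like cells from those cells was not tested. Of 4553 genes outside the gate that could be compared with the other epithelial cells of the same library, 69 (1.52%) were at least 2-fold higher in the goblet-like cells of both libraries, and 4 were at least 2-fold lower in both. The 15 genes with the largest smaller ratio are the markers described next. They were picked by this ratio in these same cells, so their higher levels are a description only. Spdef, the maturation factor at chr17:27714352-27728955, was 21.1-fold higher than in the other epithelial cells in Ptger4-ON and 21.3-fold higher in Ptger4-OFF. Its level was 76.1 CPM in 26 goblet-like cells and 42.1 CPM in 15. Clca3, the mouse Clca1 protease of mucus, was 204-fold and 1949-fold higher. In Ptger4-OFF, 1 cell of 18215 UMIs held 75.9% of the Clca3 UMIs, and Clca3 lay in 17 and 10 cells at all.

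The other markers were genes of secretory cells at low to moderate level. Creb3l1, an endoplasmic reticulum stress transducer of secretory cells, was 9.60-fold and 9.83-fold higher than in the other epithelial cells. It was not particular to goblet-like cells, with UMIs in 28.6% and 33.3% of them and in 35.9% of the fibroblast class of each library. Guca2a, which encodes the peptide guanylin, was 8.73-fold and 7.58-fold higher, at 1535 and 998 CPM. Rep15, a partner of the small GTPase Rab15, was 20.04-fold and 27.5-fold higher, and Rab15 itself 6.17-fold and 5.60-fold. These genes gave similar ratios in both libraries.

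Hepacam2, an adhesion molecule of secretory cells, was 37.0-fold and 10.9-fold higher. Fut2, the fucosyltransferase that caps mucin glycans, was 9.96-fold and 24.5-fold higher. Bcas1 was 6.88-fold and 47.0-fold higher, and Sytl2, which tethers secretory vesicles, 5.36-fold and 18.5-fold. The remaining members were Selm, Rasa4, Wnt3 and 5330417C22Rik. All of these ratios rest on few UMIs in the other epithelial cells.

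**Figure D2:**
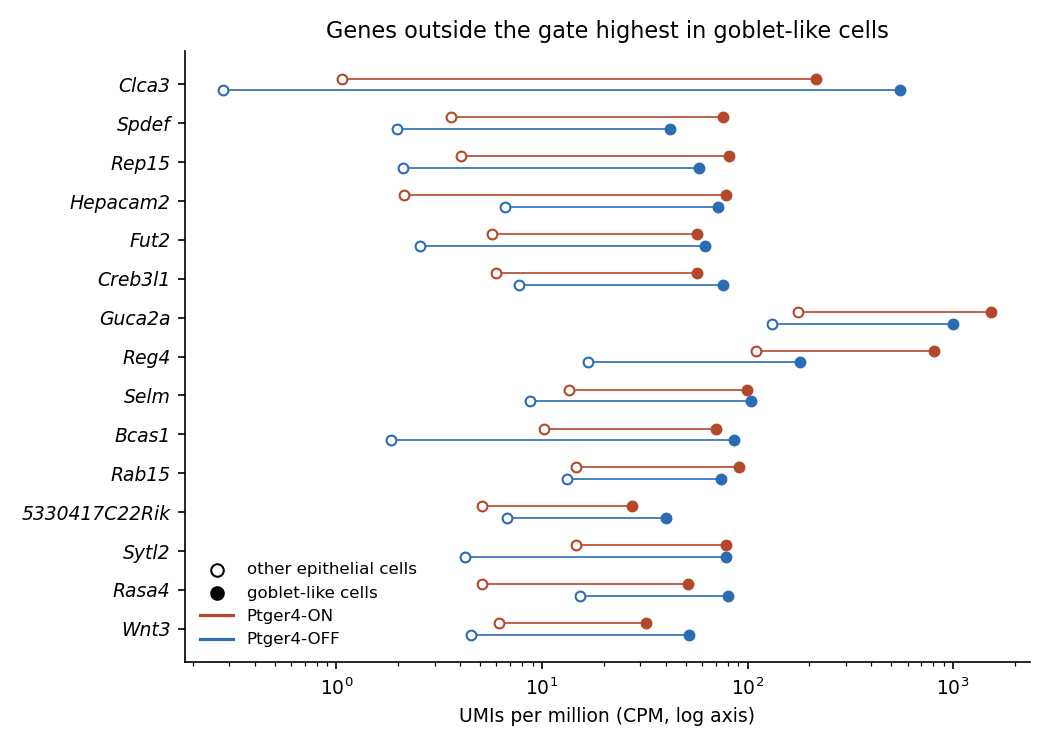
Level in CPM (log axis) of the 15 genes outside the gate that were highest in goblet-like cells relative to the other epithelial cells. Filled points are goblet-like and open points other epithelial cells, with Ptger4-ON in red and Ptger4-OFF in blue. The genes were picked by this ratio, so that every filled point lies to the right of its open point follows from the choice.

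Reg4, a secreted lectin of goblet and other secretory cells at chr3:98222156-98236748, is a goblet marker that the gate left out, and its level differed widely between the libraries. In Ptger4-ON it had 680 UMIs in 41 goblet-like cells, a level of 808 CPM (749 to 871). In Ptger4-OFF it had 90 UMIs in 21 cells, 180 CPM (145 to 222). The level was thus 4.48-fold higher in Ptger4-ON (3.59 to 5.65). In the other epithelial cells Reg4 was at 110 and 16.8 CPM, a ratio of 6.53 (5.34 to 8.04) in the same direction.

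The Reg4 difference was also seen as a share of cells at equal depth. With each cell thinned to 1000 UMIs, which left out 3 and 2 shallower goblet-like cells, Reg4 was detected in 47.3% of goblet-like cells (35.6 to 59.3) in Ptger4-ON and 15.6% (7.76 to 26.9) in Ptger4-OFF. Without thinning the shares were 53.2% and 31.8%. In the other epithelial cells the thinned shares were 5.07% and 1.10%. In the fibroblast class, which should lack the gene, they were 1.87% and 0 of 354 cells, so the goblet-like shares lay above this background. Median depths were 4649 UMIs in goblet-like cells and 4527 in the fibroblast class of Ptger4-ON, and 4060.5 and 4452 in Ptger4-OFF.

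Reg4 was lowest in goblet-dominant cells and highest in cells with more Paneth than goblet UMIs. In goblet-dominant cells, with at least 5 times as many goblet as Paneth UMIs, it was at 297 and 144 CPM. In mixed cells, with fewer, it was at 1344 and 202 CPM. In Ptger4-ON 20 of the 42 goblet-dominant cells, but 4 of the 35 mixed cells, reached the gate only with Tff3 counted. Those cells, described below, had Reg4 at 85.4 CPM, against 1244 CPM in the other goblet-like cells of Ptger4-ON. The parts of Paneth genes and of those cells in the Reg4 order cannot be told apart. In cells that reached the goblet level but had more Paneth than goblet UMIs, and so were not goblet-like, it was at 1934 and 702 CPM. Reg4 was therefore not particular to the gated cells.

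Most goblet-like cells carried some Paneth RNA. Paneth gate UMIs were present in 64 of 77 and 60 of 66 cells, with medians of 0.279% and 0.358% of UMIs. The 5 Paneth gate genes summed to 7965 CPM in goblet-like cells of Ptger4-ON and 4916 in Ptger4-OFF, to 4010 and 1896 CPM in the other epithelial cells, and to 789 and 158 CPM in the fibroblast class. The fibroblast level shows how much of this RNA was found in cells that should lack it. The part of free RNA or of cells captured together in the Paneth signal was not tested.

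The Paneth genes did not share a direction between the libraries. Defa24, a Paneth defensin, was at 5555 CPM in Ptger4-ON and 2279 in Ptger4-OFF, and Defa17 at 315 and 74.2 CPM. Lyz1, the Paneth lysozyme, was at 306 and 407 CPM, and Ang4, an antimicrobial ribonuclease, at 422 and 625 CPM. Itln1, a lectin of Paneth and goblet cells, was at 1367 and 1531 CPM. Near-identical defensin genes can share reads, so their split is uncertain. Of 10 measured genes of a wider Paneth list, 5 were higher and 5 lower in Ptger4-OFF (median log2 ratio -0.10).

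A sizeable set of cells reached the gate only with Tff3 counted, and these looked different in Ptger4-ON. In 24 of 77 goblet-like cells of Ptger4-ON (31.2%) and 24 of 66 of Ptger4-OFF (36.4%), the other 5 gate genes stayed below 0.5% of UMIs. These are called Tff3-carried cells, a split chosen after the values were seen. Tff3 was not the larger part of the gate UMIs in all of them. Its share ran from 41.7% to 99.3% in Ptger4-ON and from 25.8% to 95.2% in Ptger4-OFF. In Ptger4-ON their median share of gate UMIs from Tff3 was 94.2%, against 33.2% in the other goblet-like cells. In Ptger4-OFF the shares were 65.7% and 39.0%. Without the Tff3-carried cells the goblet-like share of epithelial cells was 9.08% and 3.50%.

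The Tff3-carried cells of Ptger4-ON had few goblet markers outside the gate, so the goblet label holds for them less well. Their median was 1.5 of the 15 markers, and 9 of the 24 had none, against a median of 6 in the other goblet-like cells. Reg4 was present in 2 of the 24, against 39 of the other 53, and Spdef in 4, against 22. In Ptger4-OFF the medians were 3 and 5 of 15 markers, with 1 Tff3-carried cell lacking all of them. Low levels of the other gate genes in these cells are set by the split itself and are not counted here.

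The same Ptger4-ON cells were rich in genes of the fetal-like state. This state, marked by Clu, Anxa1 and Ly6a, is known from fetal spheroids and from the regenerating adult epithelium. Genes of a fetal-like list made up a median of 3.85% of UMIs in the Tff3-carried cells of Ptger4-ON and 0.667% in the other goblet-like cells. In Ptger4-OFF the medians were 0.375% and 0.352%. At least 2% was reached by 17 of 24 Tff3-carried cells and 7 of 53 others in Ptger4-ON, and by 2 of 24 and 4 of 42 in Ptger4-OFF. Both libraries also had a few cells outside the Tff3-carried set with high fetal-like RNA, most of them with a large Tff3 part.

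**Figure D3:**
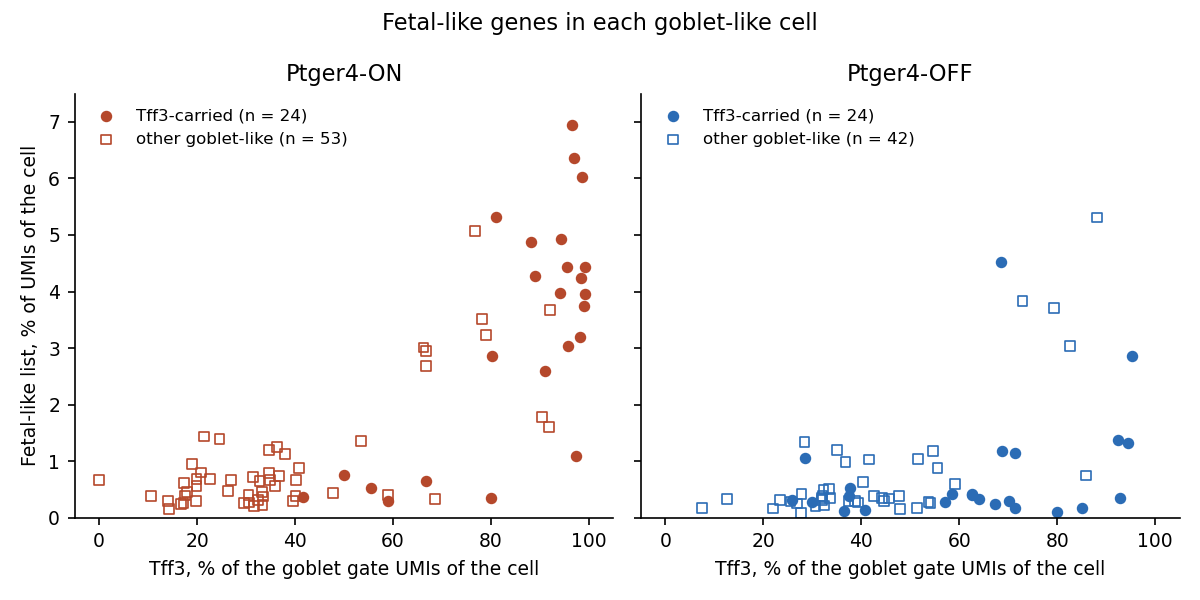
Each point is 1 goblet-like cell: the share of its UMIs from the fetal-like list against the share of its goblet gate UMIs that are Tff3. Filled circles are the 24 Tff3-carried cells of each library and open squares the other 53 and 42; the cells with high fetal-like shares lie at high Tff3 shares, and there are more of them in Ptger4-ON.

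Between the libraries, most genes of goblet-like cells were at a similar level. Of 4878 genes with at least 50 UMIs over both libraries, 145 (2.97%) were at least 2-fold lower in Ptger4-OFF and 44 (0.902%) at least 2-fold higher. In all, 2417 were lower and 2461 higher, and the median log2 ratio was 0.00. In the other epithelial cells the same genes had a median of -0.03. With the cells over 50000 UMIs left out, 113 genes were at least 2-fold lower and 78 higher, and with each cell given equal weight 359 and 223. Described here are the 12 largest ratios in each direction among genes that, in the library where they were higher, reached 200 CPM in at least 10 cells with no more than 50% of their UMIs from 1 cell, and were at least 1.5-fold different with equal cell weights. Reg4, given above, is among them, and genes with larger ratios in few cells or at low level are not.

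Krt23, Wfdc2, Fabp5, Reg4 and Il1rn had the largest ratios of the 12 that were lower in Ptger4-OFF. Krt23, an epithelial keratin at chr11:99477974-99493137, had 374 UMIs in 32 Ptger4-ON cells, 445 CPM (401 to 492). In Ptger4-OFF it had 37 UMIs in 13 cells, 74.2 CPM (52.2 to 102), so it was 6.00-fold higher in Ptger4-ON (4.27 to 8.65). Wfdc2, a secreted protease-inhibitor-like protein, was at 302 and 62.1 CPM, a ratio of 4.86 (3.34 to 7.30). Fabp5, a fatty-acid carrier, was at 218 and 48.1 CPM, a ratio of 4.52 (2.95 to 7.24). Rdh10, a retinol dehydrogenase, was at 297 and 80.2 CPM, a ratio of 3.71 (2.65 to 5.31).

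Il1rn, Anxa1 and Msln were among the 12, and with Krt23, Wfdc2 and F3 they are also on the fetal-like list described further on. Il1rn, the antagonist of the interleukin 1 receptor, was at 225 CPM in Ptger4-ON and 50.1 in Ptger4-OFF, a ratio of 4.48 (2.95 to 7.11). Anxa1, a calcium-binding annexin of wound repair, was at 811 and 259 CPM, a ratio of 3.14 (2.59 to 3.82). Msln, the surface protein mesothelin, was at 662 and 230 CPM, a ratio of 2.87 (2.35 to 3.54). These genes were carried by part of the class, with UMIs of Anxa1 in 33 and 13 cells and of Msln in 31 and 8.

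F3, the coagulation tissue factor, was at 947 and 337 CPM, a ratio of 2.81 (2.38 to 3.34). Cd55, which guards cells against complement, was at 314 and 112 CPM, a ratio of 2.80 (2.09 to 3.80). Nupr1, a stress-induced nuclear protein, was at 858 and 367 CPM and F11r, a tight-junction protein, at 253 and 108 CPM. Both had a ratio of 2.34. All 12 genes were also lower in Ptger4-OFF in the other epithelial cells, with ratios from 1.74 (F11r) to 6.53 (Reg4). In mixed cells alone Anxa1 (377 and 391 CPM), F3 (346 and 395), Cd55 (63.3 and 103) and Il1rn (31.6 and 54.5) were higher in Ptger4-OFF.

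For some of these genes the difference was concentrated in the Tff3-carried cells. Anxa1 was at 1910 CPM in Tff3-carried cells of Ptger4-ON and 271 in those of Ptger4-OFF, while the other goblet-like cells had 149 and 249 CPM, which is the opposite order. Msln was at 1442 and 361 CPM in Tff3-carried cells and at 192 and 126 CPM in the others. Wfdc2 was at 576 and 22.6 CPM, against 137 and 93.8. Krt23 was at 762 and 81.2 CPM, against 253 and 68.5, so it kept its order in both. Among Tff3-carried cells 1 cell held 47.5% and 76.7% of the Anxa1 UMIs, and 38.6% and 61.1% of the Krt23 UMIs. Msln in Ptger4-OFF had 80 UMIs in 4 of these cells, 73.75% from 1, and Wfdc2 had 5 UMIs in 3. In Ptger4-ON 1 of them held 53.8% of the Wfdc2 UMIs. Among the others 1 cell held 48.7% and 42.0% of the Anxa1 UMIs.

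Reg4, Cd55, Fabp5 and Il1rn had the larger ratio between the libraries outside the Tff3-carried cells. Reg4 was at 1244 and 242 CPM in the other goblet-like cells but at 85.4 and 104 CPM in the Tff3-carried ones. In Tff3-carried cells of Ptger4-ON it had 27 UMIs in 2 cells, 92.6% of them in 1. Cd55 was at 309 and 46.9 CPM in the others, against 323 and 194. Fabp5 was at 156 and 14.4 CPM in the others, against 319 and 90.2, and Il1rn at 179 and 21.6 CPM, against 300 and 85.7. Among the others of Ptger4-OFF, Fabp5 had 4 UMIs and Il1rn 6, and 1 cell held 46.8% of the Il1rn UMIs of the others in Ptger4-ON. Il33, an alarmin cytokine that was lower in Ptger4-OFF in both sets, lay in few cells, with 155 UMIs in 13 cells (184 CPM) against 1 UMI in Ptger4-OFF. That ratio was 91.9, with a counting interval from 16.3 to 3654, and 49.7% of the Ptger4-ON UMIs came from 1 cell. Fibroblasts of these cultures also held Il33, at 173 and 449 CPM.

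**Figure D4:**
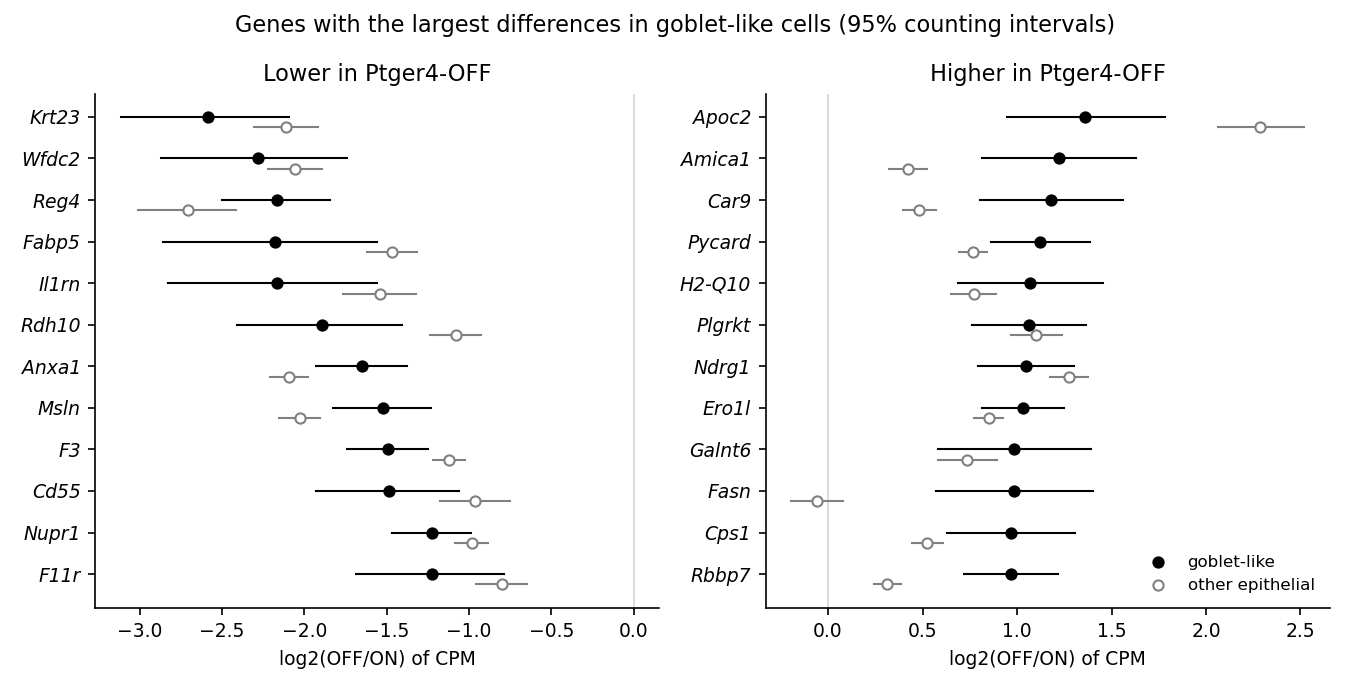
Log2 ratio of CPM in Ptger4-OFF over Ptger4-ON for the 12 genes in each direction with the largest ratios among those that passed the limits on level, number of cells and share from 1 cell. Filled points are goblet-like and open points other epithelial cells, and bars are 95% counting intervals; the 12 genes on the left are lower in Ptger4-OFF in both, and on the right Fasn is the gene whose other epithelial value lies below 0.

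The fetal-like list was lower in goblet-like cells of Ptger4-OFF, as in the rest of the epithelium. Of 25 measured members of 32 listed, 24 were lower and 13 at least 2-fold lower, against 2.97% of all genes, and the median log2 ratio was -1.02. In the other epithelial cells all 25 were lower, with a median of -1.36. The measured exception in goblet-like cells was S100a10, a calcium-binding protein, at 1343 CPM in Ptger4-ON and 1477 in Ptger4-OFF. The list was lower among Tff3-carried cells (median -1.27, 21 of 22 measured) and among the others (-0.52, 19 of 24).

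The order of the fetal-like genes differed between goblet-dominant and mixed cells. Of the 42 and 30 goblet-dominant cells, 20 and 13 were Tff3-carried, as were 4 and 11 of the 35 and 36 mixed cells. The kinds compared here and below thus differ in Paneth genes and in Tff3-carried cells, which cannot be told apart. In goblet-dominant cells the list summed to 29693 CPM in Ptger4-ON and 9622 in Ptger4-OFF, with a median log2 ratio of -2.04. In mixed cells the sums were 12297 and 13603 CPM and the median was 0.05. Clu, a secreted chaperone of regenerating epithelium, was at 2000 CPM in all goblet-like cells of Ptger4-ON and 1116 in Ptger4-OFF. In mixed cells it was at 399 and 831 CPM, the opposite order, and 1 mixed cell of 47545 UMIs in Ptger4-OFF had 4.51% of its UMIs from the list. Ly6a, the surface protein Sca-1, was at 742 and 529 CPM over all goblet-like cells and at 638 and 818 CPM in mixed cells.

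Targets of YAP and TEAD, the transcriptional arm of the Hippo pathway, were also mostly lower, and inflammatory genes were lower over all goblet-like cells but not under every alternative. For YAP and TEAD 8 of 9 measured genes of 24 listed were lower, 4 at least 2-fold (2.97% of all genes), with a median of -0.85 (other epithelial cells -0.57). Myof, a membrane-repair protein, was at 126 and 60.1 CPM, and Gadd45b, a stress-response gene, at 187 and 92.2 CPM. For NF-kB and inflammatory genes 6 of 9 measured of 25 listed were lower, 3 at least 2-fold, with a median of -0.91 (other epithelial cells -0.46). The NF-kB median was 0.18 with a 2% gate (3 genes measured), 0.024 over genes with at least 100 UMIs (5 genes) and 0.073 in mixed cells (4 genes). Cxcl16, a chemokine, was at 197 and 64.1 CPM, Nfkb2, an NF-kB subunit, at 72.5 and 32.1 CPM, and Duox2, which makes hydrogen peroxide at the cell surface, at 76.1 and 38.1 CPM. Most members of both lists were too low to measure here.

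Pycard and Nlrp6 were among the genes that were higher in Ptger4-OFF. Pycard, the inflammasome adaptor ASC, was at 260 CPM (227 to 297) in 37 cells of Ptger4-ON and 567 CPM (503 to 637) in 48 cells of Ptger4-OFF, a ratio of 2.18 (1.82 to 2.61). Nlrp6, the inflammasome sensor studied in goblet secretion, was at 84.4 and 198 CPM, a ratio of 2.35 (1.72 to 3.24). Its level was below the limit of 200 CPM, so it is not one of the genes picked by largest ratio. Pycard was also higher in Ptger4-OFF in the other epithelial cells, so its order was not particular to goblet-like cells. Pycard and Nlrp6 were also higher in Ptger4-OFF in goblet-dominant cells and in mixed cells taken apart. Pycard was at 132 and 604 CPM in goblet-dominant and at 394 and 545 CPM in mixed cells, and Nlrp6 at 74.4 and 235 CPM and at 94.9 and 176 CPM.

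Car9, Ndrg1 and Ero1l, which are known to respond to low oxygen, were also among the 12 higher genes. Car9, a carbonic anhydrase, was at 124 CPM in Ptger4-ON and 281 in Ptger4-OFF, a ratio of 2.27 (1.75 to 2.95). Ndrg1, a differentiation and stress gene, was at 279 and 577 CPM, a ratio of 2.07 (1.73 to 2.47). Ero1l, the oxidase that supplies disulfide bonds in the endoplasmic reticulum, was at 384 and 784 CPM, a ratio of 2.04 (1.76 to 2.37). Of 23 measured genes of a glycolysis and hypoxia list, 16 were higher in Ptger4-OFF, 2 of them at least 2-fold (0.902% of all genes), 1 was at least 2-fold lower, and the median was 0.22 (other epithelial cells 0.28).

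Apoc2, Fasn, Cps1 and Plgrkt were also among the 12. Apoc2, an apolipoprotein of enterocytes, was at 97.5 and 251 CPM, a ratio of 2.57 (1.93 to 3.44), but 1 cell held 56.1% and 48.8% of its UMIs, and without the Tff3-carried cells its order was the opposite. Fasn, fatty acid synthase, was at 109 and 216 CPM, a ratio of 1.98 (1.48 to 2.64), and in the other epithelial cells its ratio was 0.96. The rest of the 12 were also higher in Ptger4-OFF in the other epithelial cells. Cps1, a mitochondrial ammonia-handling enzyme, was at 163 and 319 CPM, a ratio of 1.96 (1.55 to 2.48). Plgrkt, a plasminogen receptor, was at 200 and 417 CPM. The spread of Fasn over 35 and 33 cells was even, with at most 14.1% of its UMIs in 1 cell.

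Amica1, an adhesion molecule, was at 106 and 247 CPM, a ratio of 2.33 (1.76 to 3.10). H2-Q10, a class I histocompatibility gene whose close copies can share reads, was at 126 and 265 CPM. Galnt6, which starts mucin-type O-glycans, was at 115 and 228 CPM, a ratio of 1.98 (1.498 to 2.62). Rbbp7, a histone-binding subunit of chromatin complexes, was at 304 and 595 CPM, a ratio of 1.96 (1.65 to 2.32). These were higher in Ptger4-OFF in goblet-dominant and in mixed cells alike.

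Goblet products beyond the gate had no common direction. Of 16 measured genes of 28 listed, 6 were higher and 10 lower in Ptger4-OFF, with 2 and 4 at least 2-fold (0.902% and 2.97% of all genes) and a median of -0.11. In the other epithelial cells the same 16 had a median of -1.11. Besides Reg4 and Wfdc2, the lower ones included Ramp1, a receptor partner for calcitonin-family peptides, at 115 and 32.1 CPM, a ratio of 3.60 (2.11 to 6.54). Wfdc2 is also on the fetal-like list. Retnlb, a goblet antimicrobial protein, had 53 UMIs in 6 cells of Ptger4-ON and 1 UMI in Ptger4-OFF, a ratio of 31.4 (5.40 to 1265). Guca2a was lower as well, with a Ptger4-ON to Ptger4-OFF ratio of 1.54 (1.39 to 1.71).

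The higher ones included the antibody transporter and ion-transport genes. Pigr, which carries IgA into the lumen, was at 945 CPM (880 to 1013) in 62 cells of Ptger4-ON and 1365 CPM (1264 to 1471) in 62 of Ptger4-OFF, a ratio of 1.44 (1.30 to 1.60). Slc12a8, a transporter, was at 83.2 and 136 CPM, a ratio of 1.64 (1.16 to 2.32). Tff1, a trefoil peptide better known from the stomach, was at 112 and 681 CPM, but lay in 6 and 3 cells and 1 cell held 89.7% of its Ptger4-OFF UMIs. That was the same cell that held most of the Clca3. Lypd8, which keeps bacteria off the surface, was at 2557 and 2407 CPM and the membrane mucin Muc13 at 579 and 537 CPM, close to equal.

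Without the Tff3-carried cells the goblet products leaned to Ptger4-ON. There 13 of 16 were lower in Ptger4-OFF, and the median was -0.65. Muc2 is a gate gene and not part of this list, and both the gate and the split act on its level. As a description only, it was at 651 and 314 CPM in these cells and at 19.0 and 40.6 CPM in the Tff3-carried ones. Guca2a, which is outside the gate, was at 2276 and 1338 CPM, against 304 and 573. In the Tff3-carried cells Muc2 had 6 UMIs in Ptger4-ON and 9 in Ptger4-OFF, and 1 Ptger4-ON cell held 80.2% of the Guca2a UMIs.

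Genes that build mucin glycans were nearly level between the libraries. Of 18 measured of 27 listed, 8 were higher and 10 lower in Ptger4-OFF, 0 of them at least 2-fold, with a median of -0.12 (other epithelial cells -0.10). The 2 genes of the core 1 step were both lower, with C1galt1, the galactosyltransferase, at 73.7 and 38.1 CPM and its chaperone C1galt1c1 at 98.7 and 60.1 CPM. Among the enzymes that start O-glycans, Galnt12 was at 55.9 and 82.2 CPM and Galnt4 at 64.2 and 46.1 CPM.

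The transcription factors of the secretory and goblet fate were low in both libraries. Of 15 measured of 25 listed, 5 were higher and 10 lower in Ptger4-OFF, 1 at least 2-fold (2.97% of all genes), with a median of -0.31 (other epithelial cells -0.32). Atoh1, the secretory fate factor, was at 61.8 CPM in 25 cells and 34.1 CPM in 10. Spdef had a Ptger4-ON to Ptger4-OFF ratio of 1.81 (1.09 to 3.12). Foxa3, an endodermal forkhead factor, was at 82.0 and 40.1 CPM, and passed 2-fold with a ratio of 2.05 (1.23 to 3.55).

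Other factors of the list differed little or in the opposite order. Klf4, a goblet differentiation factor, was at 214 and 192 CPM. Hes6, a partner of Notch target factors, was at 156 and 214 CPM, Cdx1, an intestinal identity factor, at 164 and 230 CPM and Hnf4a, an enterocyte and crypt factor, at 206 and 283 CPM. Creb3l1 was at 57.1 and 76.2 CPM. Without the Tff3-carried cells the list was close to level, with 6 of 13 measured factors higher and a median of -0.02.

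Genes of protein folding in the endoplasmic reticulum, which handle the large mucins, were slightly higher in Ptger4-OFF. Of 22 measured of 26 listed, 20 were higher, 0 at least 2-fold, and the median was 0.23 (other epithelial cells 0.15). Hspa5, the chaperone BiP, was at 1119 CPM (1048 to 1192) and 1708 CPM (1595 to 1826), a ratio of 1.53 (1.39 to 1.68), while in the other epithelial cells its ratio was 1.11 (1.07 to 1.15). Hsp90b1, its partner chaperone, was at 1642 and 2217 CPM and Pdia6, a disulfide isomerase, at 344 and 529 CPM. The stress-linked factor Ddit3 was at 33.3 and 54.1 CPM.

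The folding genes were higher in Ptger4-OFF in goblet-dominant cells, while in mixed cells their median was slightly below 0. The difference between the kinds was not tested. Hspa5 was at 909 and 2335 CPM in goblet-dominant cells and at 1339 and 1331 CPM in mixed cells. The list medians were 0.67 and -0.10. In Tff3-carried cells 14 of 14 measured members were higher in Ptger4-OFF, with a median of 0.66, and in the others 13 of 18, with a median of 0.21. Genes of transport between the endoplasmic reticulum and the Golgi had a median of 0.19, with 18 of 28 higher, and those of granule release a median of 0.02, with 6 of 10 higher.

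Cycling genes were present in goblet-like cells of both libraries. Mki67, a marker of cycling cells, was at 323 CPM (286 to 364) in Ptger4-ON and 429 CPM (373 to 490) in Ptger4-OFF. The other epithelial cells had 621 and 594 CPM. At 1000 UMIs in each cell, Mki67 was detected in 27.0% and 26.6% of goblet-like cells, against 35.02% and 32.7% of the other epithelial cells. These shares gave no order between the libraries.

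The level of Mki67 differed between the kinds of goblet-like cell in Ptger4-ON and was near equal in Ptger4-OFF. It was at 97.6 CPM in goblet-dominant and 560 CPM in mixed cells of Ptger4-ON, and at 427 and 430 CPM in those of Ptger4-OFF. Of 18 measured genes of a G1/S list, 15 were higher in Ptger4-OFF, with a median of 0.45 (other epithelial cells 0.03). That median was 0.10 with each cell given equal weight, 0.049 in mixed cells and -0.41 in Tff3-carried cells, so it rests on the weighting and the kind of cell. Rrm2, a subunit of ribonucleotide reductase, was at 55.9 and 128 CPM. Of 26 measured G2/M genes 12 were higher and 14 lower, with a median of -0.02, so the G2/M list did not share the G1/S order.

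Crypt stem-cell genes were mostly higher in Ptger4-OFF over all goblet-like cells, with an order that depended on the kind of cell. Of 10 measured of 16 listed, 8 were higher there, 1 at least 2-fold (0.902% of all genes), with a median of 0.29 (other epithelial cells 0.04). The same genes had a median of 1.04 in goblet-dominant and -0.23 in mixed cells, and the 4 that could be measured in Tff3-carried cells -0.29. Lgr5, the Wnt-amplifying receptor of stem cells, was at 70.1 and 104 CPM, a ratio of 1.49 (1.00 to 2.19). Smoc2, a matrix protein of stem cells, was at 71.3 and 140 CPM and Aqp4, a water channel, at 28.5 and 72.2 CPM. Prom1, the membrane protein CD133, was the opposite, at 329 and 194 CPM.

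Mitochondrially encoded RNA, which tracks cell state and RNA quality, was higher in Ptger4-OFF. All 7 measured genes of 13 listed were higher, with a median of 0.53, and in the other epithelial cells the median was 0.57. Median mitochondrial shares were 1.75% and 2.15% of UMIs in goblet-like cells. Of 18 measured genes linked to dissociation and heat shock, 6 were higher and 12 lower, with a median of -0.10. The part of these measures in the other differences was not tested.

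Enterocyte genes in the goblet-like cells came from a handful of cells. Of 16 measured of 24 listed, 6 were higher and 10 lower in Ptger4-OFF, with a median of -0.22, while the other epithelial cells had a median of 1.26. In each library 3 cells with over 1% of their UMIs from the list held 83.9% and 75.1% of these UMIs. Among them was a Ptger4-ON cell of 92081 UMIs, with 4.16% of its UMIs from the list and 37.8% of the Zg16 of its library. With the cells over 50000 UMIs left out the median was 1.68, and without the Tff3-carried cells it was -1.75, with 14 of 15 measured genes lower. The order thus depends on which few cells are left out.

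Markers of other cell types were near the floor. Enteroendocrine genes summed to 61.8 CPM in goblet-like cells of Ptger4-ON and 72.2 in Ptger4-OFF, and tuft genes to 9.51 and 10.0 CPM. Fibroblast genes summed to 90.3 and 166 CPM, against 42922 and 43190 CPM in the fibroblast class. Leukocyte genes summed to 15.5 and 12.03 CPM, and endothelial, glial and muscle genes to 11.9 and 14.03 CPM. None of these lists had a member with 50 UMIs in goblet-like cells.

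Ptger4, the gene of the receptor that the antagonist blocks, lies at chr15:5206661-5244187 and was sparse in goblet-like cells. It had 39 UMIs in 18 cells of Ptger4-ON, 46.4 CPM (33.0 to 63.4), and 12 UMIs in 9 cells of Ptger4-OFF, 24.1 CPM (12.4 to 42.0). The ratio of Ptger4-OFF to Ptger4-ON was 0.52, with an interval from 0.25 to 1.01 that includes equal levels. In the other epithelial cells Ptger4 was at 23.4 and 29.6 CPM, a ratio of 1.27 (1.00 to 1.61). The antagonist acts on the receptor protein, so these levels check neither the treatment nor the labels. Of 10 measured genes of a list of cAMP and CREB targets, downstream of EP4, 8 were lower in Ptger4-OFF, 1 at least 2-fold (2.97% of all genes), with a median of -0.23 (other epithelial cells 0.11).

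**Figure D5:**
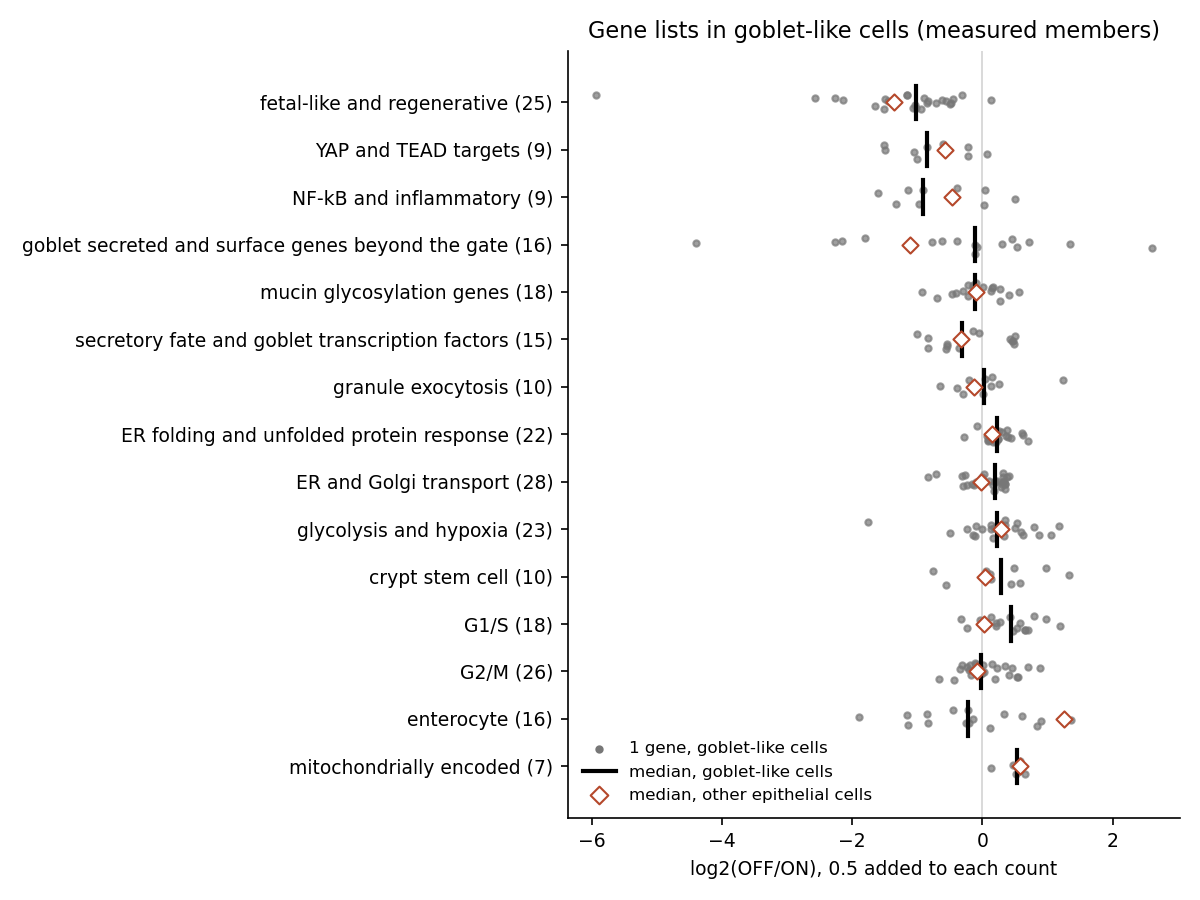
Log2 ratio of Ptger4-OFF over Ptger4-ON in goblet-like cells, with 0.5 added to each count, for the measured members of 15 gene lists (number in brackets). Grey points are genes, black bars their medians and open diamonds the medians of the same genes in other epithelial cells; by the median in goblet-like cells, the fetal-like list lies furthest below 0 and the mitochondrially encoded list furthest above 0.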

How the data were processed

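The deposited tables hold whole-number counts for each gene and cell barcode, without normalization, 1 table for each of the 2 libraries. That these counts are UMIs follows from Drop-seq, per the labels' protocols. The submitters' processing notes name STAR 2.6 and mm10; for the counting tool, the annotation and the barcode selection no statement is given in the sources used here. Ptger4-ON was deposited with 908 barcodes and 7408303 counts, Ptger4-OFF with 1599 and 9490205.

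Barcodes needed 300 genes and no more than 20% mitochondrial UMIs (882 and 1564 passed), and were then gated as described. UMIs were summed over the cells of a class and divided by their total (CPM). CPM has exact Poisson intervals, ratios have exact conditional binomial intervals and shares have Clopper-Pearson intervals, all at 95%. A gene was measured with at least 50 UMIs over both libraries; log2 ratios used 0.5 added to each count. The ratio intervals were run on simulated Poisson counts, the model they assume, so that check does not cover uneven spread over cells. Alternatives were other gates, cell filters, cell weights, count minimums and scaling by TMM or median-of-ratios factors. With 1 library for each condition no p-value was computed. Summed counts do not tell fewer expressing cells from less RNA in each cell.

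Named genes were the 12 largest ratios in each direction among genes that, in the library where they were higher, had 200 CPM or more, UMIs in at least 10 cells, at most a fraction of 0.5 of UMIs from 1 cell and at least 0.5 of the fibroblast-class CPM, and were at least 1.5-fold when cells have equal weight; the 15 genes with the largest goblet to other epithelial ratio; up to 4 members of each list; and genes fixed by name. S100a10 was named after its value was seen. Some genes are not reported here. The members, lists and rules were chosen with earlier results of these data known. Gene positions come from GENCODE vM21, which held 154 of 156 named genes. Tools were scanpy 1.11.5 for Scrublet, scipy 1.17.1 for intervals, and numpy 2.4.6 and pandas 2.3.3 in Python 3.11.15.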

Additional observations from a re-analysis of the deposited data

Results flagged for a closer look

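In the 16 results given here the goblet-like cells and the other epithelial cells of the same libraries had log2 ratios of Ptger4-OFF over Ptger4-ON with opposite signs. Opposite signs alone were not enough for a gene to be flagged. It had to be at least 2-fold in opposite directions, with both counting intervals leaving out equal levels. The enterocyte list was added by its median. With 1 library in each condition, none of these differences was tested, and chance was not measured.

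Most were enterocyte genes whose Ptger4-ON UMIs came from 1 goblet-like cell. The enterocyte list had a median of -0.22 in goblet-like cells and 1.26 in the other epithelial cells. Fabp1, a fatty-acid carrier, was at -1.15 against 3.15, with 97.1% of its Ptger4-ON UMIs in 1 cell, and at 3.76 once cells over 50000 UMIs were left out. The same pattern held for Cyp2c55 (-1.43 against 2.85), Cyp2c66 (-1.03 against 2.47), Cyp3a25 (-1.78 against 2.90), Dpep1 (-4.14 against 2.16) and Cst6 (-2.98 against 1.89). Sis was at -1.90 against 1.20, Cyp4f14 at -2.995 against 2.27, Slc51b at -2.62 against 0.99, Ccl25 at -1.35 against 1.78 and St3gal4 at -1.04 against 1.03. Each of these was above 0 in goblet-like cells without the cells over 50000 UMIs. With the cells rich in enterocyte genes left out as well, Sis (-2.93), Cyp4f14 (-1.25), Ccl25 (-0.52) and St3gal4 (-0.23) were below 0.

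Cyp2c29, at -7.33 against 3.30, and H2-Q2, at -1.37 against 1.69, were still below 0 without those cells, at -1.79 and -0.24. With the enterocyte-rich cells left out as well, Cyp2c29 was at 0.63 and H2-Q2 at -0.039. Cyp2c29 had UMIs in 2 goblet-like cells of Ptger4-ON and 0 of Ptger4-OFF.

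Tff1 and the defensin gene Gm15284 went the opposite way. Tff1 was at 2.603 in goblet-like cells and -2.93 in the others, with 89.7% of its Ptger4-OFF UMIs in 1 cell. Gm15284 was at 1.69 and -2.53, with 58.5% in 1 cell.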

How the results depend on the processing

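No paired analysis was possible because each condition was 1 library. Leaving out a replicate was not possible for the same reason. Where a value moved, the cause was not tested, except that a count minimum sets how many genes are compared. The goblet-like share stayed higher in Ptger4-ON under every alternative run. It was 6.68% and 2.75% with a 2% gate, 7.19% and 2.50% with goblet-dominant cells alone, and 9.08% and 3.50% without Tff3-carried cells. The counts of genes at least 2-fold lower in Ptger4-OFF were 52 with the 2% gate, 249 in goblet-dominant cells, 48 in mixed cells, 359 with equal weight for each cell, and 398 and 64 with minimums of 20 and 100 UMIs. The counts at least 2-fold higher were 90 with a 0.25% gate, 25 with the 2% gate, 87 in goblet-dominant cells, 78 without cells over 50000 UMIs, 223 with equal weight, and 200 and 18 with minimums of 20 and 100 UMIs. Scaling by TMM or median-of-ratios factors moved no count by over 1.5 times and turned the sign of 1 list median, that of granule release, which was near 0 under both.

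The fetal-like median was -0.53 with the 2% gate, -2.07 in goblet-dominant cells, -2.30 in these with equal weight, and -0.52 and -0.35 without Tff3-carried cells (summed and equal weight). In mixed cells it had the opposite sign, at 0.054 summed and 0.074 with equal weight. The folding-gene median was 0.40 with the 2% gate, 0.70 and 0.64 in goblet-dominant cells (summed and equal weight), 0.41 with equal weight, and -0.14 and 0.068 in mixed cells. The G1/S value with the 2% gate was -0.60, from 1 measured gene. Its median was 0.10 with equal weight, 0.049 and -0.026 in mixed cells, and -0.31 without Tff3-carried cells at equal weight. The enterocyte median was 1.68 without cells over 50000 UMIs, 1.01 with equal weight, 0.81 and 0.68 in mixed and goblet-dominant cells at equal weight, and -1.75 without Tff3-carried cells. In mixed and goblet-dominant subsets a list's measured members can differ from those over all cells.

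Signs also turned for single lists and genes. The 7 goblet markers were at 0.18 in goblet-dominant cells. The NF-kB list was at 0.18 with the 2% gate (3 genes measured) and 0.024 with a minimum of 100 UMIs (5 genes). It was at 0.073 and 0.50 in mixed cells (4 genes), and 0.12 without Tff3-carried cells at equal weight (5 genes). The mitochondrial list was at -0.0093 with the 2% gate, -0.23 in mixed cells and -0.047 without Tff3-carried cells, both at equal weight. In mixed cells, summed and equal weight, Clca3 was at -0.55 and -0.51, Il1rn at 0.77 and 1.43, Anxa1 at 0.054 and 1.45, Cd55 at 0.69 and 0.0058, and F3 at 0.19 and 0.31. At equal weight in mixed cells the YAP and TEAD list was at 0.18, Krt23 at 0.39, F11r at 0.049 and Myof at 0.27. With the 2% gate Anxa1 was at 0.12, Myof at 0.49 and Ier3 at 1.00. Without Tff3-carried cells Anxa1 was at 0.75 and 1.54 (summed and equal weight), Tff1 at -5.97 and -5.75, Apoc2 at -1.02 and Ier3 at 0.12 summed, and Myof at 0.30 at equal weight. In goblet-dominant cells Retnlb was at 1.20, and at equal weight Ramp1 was at 0.047, Foxa3 at 0.80 and Rgs2 at 1.37. Reg4 was lower in Ptger4-OFF under all alternatives run, from -0.47 in goblet-dominant cells at equal weight to -2.91 in mixed cells at equal weight. The subsets of mixed, equally weighted goblet-dominant and Tff3-carried cells were chosen after seeing the data.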

Other observations

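Over all goblet-like cells most antigen-presentation and interferon genes were lower in Ptger4-OFF, but not within each kind of cell. Of 11 measured genes of 23 listed, 8 were lower, 2 of them at least 2-fold (2.97% of all genes), with a median log2 ratio of -0.38, against 0.03 in the other epithelial cells. In mixed cells the median was -0.034, in Tff3-carried cells 3 of 4 measured were higher (median 0.31), and in the rest 3 were higher and 4 lower (median -0.032). Tapbp, which loads peptide onto class I molecules, was at 72.5 CPM in Ptger4-ON and 40.1 in Ptger4-OFF, and Ifitm2, an interferon-induced membrane protein, was higher in Ptger4-OFF at 64.2 and 104 CPM. The difference between goblet-like and other epithelial cells was not tested.

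Among targets of cAMP signalling, Areg, a ligand of the EGF receptor, was at 1865 CPM in 51 cells and 1034 CPM in 29. Areg is also on the fetal-like list, and was at 3217 and 1408 CPM in Tff3-carried cells, against 1051 and 736 in the others. Rgs2, a brake on G-protein signals, was at 90.3 and 34.1 CPM. Among immediate early genes the members differed in order. Ier3 was at 228 CPM in Ptger4-ON and 108 in Ptger4-OFF and Jund at 372 and 224 CPM, while Jun was at 529 and 708 CPM. Cholesterol synthesis genes were level, with 11 of 20 measured higher in Ptger4-OFF and a median of 0.05, although Hsd17b7, a sterol reductase, was at 89.2 and 38.1 CPM. Hk1, the hexokinase of most tissues, was at 57.1 and 16.0 CPM, against the order of the glycolysis list.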
